A study of Mus musculus with 12 samples.

Results

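The stefin A genes of mouse bone marrow-derived dendritic cells (DCs) were examined by RNA-seq as a cluster of related neighbours on chromosome 16. Members were chosen by symbol from a list of 8 names, with the strong rise of *Cstdc4* in the knockdown already known. *BC100530* is an older name of *Cstdc5*, so the 8 names stood for 7 genes among the 55471 in the table: *Cstdc4*, *Cstdc5*, *Cstdc6*, *Stfa1*, *Stfa2*, *Stfa2l1* and *Stfa3*. All 7 had at least 1 count, and 6 passed the filter on low counts. *Cstdc6* did not pass, with 0 to 2 counts in each library.

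Bone marrow of adult female C57BL/6 mice was grown with GM-CSF and was transduced by retrovirus with a short hairpin RNA (shRNA). In shControl cells the hairpin targeted firefly luciferase. In sh*Ppargc1b* cells it targeted *Ppargc1b*, which encodes PGC-1β, a co-activator of transcription. Both arms were sorted on the vector's human CD8 reporter, and cells were left unstimulated or received IFN-β for 6 h, which gave 4 groups of 3 libraries. All 4 groups therefore shared the vector, the sort and the cytokine, and the knockdown was partial: without IFN-β, *Ppargc1b* stood at 34.5 ± 1.94 CPM in control cells and at 19.4 ± 0.851 CPM in knockdown cells (SD, n = 3). With IFN-β it was at 27.8 ± 3.93 and 18.7 ± 2.83 CPM, and it was lower in the knockdown in both states (edgeR adjusted p = 3.25e-05 and 0.000945).

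CPM are counts divided by the library total in M counts, after library sizes were scaled by TMM, edgeR's trimmed mean of M-values. Libraries held 49.9 to 77.7 M counts, so 1 CPM stood for roughly as many read pairs as a library had M counts. The labels did not say whether libraries of a group came from separate mice, so p-values measure the spread between libraries, which may be technical. Of 10 dendritic-like markers 9 were tested, and *Cd209a*, a lectin of monocyte-derived DCs, was too low to test.

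Stefins are small cytosolic cystatins. They block cathepsins and other papain-like cysteine proteases by occupying the active site as tight, reversible inhibitors. Stefin A is encoded by a single gene in humans, while in mice it has expanded into a tandem family that is known in granulocytes, bone marrow and stratified epithelia. Stefin B (*Cstb*) is the related inhibitor made by most cells, and cystatin C (*Cst3*) is its secreted relative.

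In GRCm38 the members spanned chr16:36156811-36455392. *Stfa2l1*, *Cstdc4* and *Stfa1* lay on the plus strand, and *Cstdc6*, *Cstdc5*, *Stfa2* and *Stfa3* followed on the minus strand. *Csta2*, a stefin A gene that is not among the members, lay inside the span between *Cstdc4* and *Stfa1*. Its coding sequence is printed beside that of *Cstdc4* because it is the nearest copy of the member with the most counts. Capitals mark the 9 of 291 positions at which the pair differ (GENCODE M21 transcripts).
Cstdc4: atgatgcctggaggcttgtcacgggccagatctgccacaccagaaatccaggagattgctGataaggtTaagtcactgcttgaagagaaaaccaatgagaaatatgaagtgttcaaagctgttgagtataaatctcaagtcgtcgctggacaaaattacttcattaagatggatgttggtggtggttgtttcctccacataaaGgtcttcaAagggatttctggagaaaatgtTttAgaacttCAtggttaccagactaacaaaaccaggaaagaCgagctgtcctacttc
Csta2: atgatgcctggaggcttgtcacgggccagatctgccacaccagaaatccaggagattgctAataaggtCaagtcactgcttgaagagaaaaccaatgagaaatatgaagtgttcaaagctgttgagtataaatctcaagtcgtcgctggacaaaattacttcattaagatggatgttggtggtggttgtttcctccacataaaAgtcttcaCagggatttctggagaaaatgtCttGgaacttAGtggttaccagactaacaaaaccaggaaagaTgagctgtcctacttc

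Coding sequences of the 7 members were 77.7% to 97.9% identical over 21 pairs, with a median of 81.6%. Only 4 pairs were at least 90% identical, and the next pair stood at 84.5%. *Stfa1*, *Cstdc5* and *Cstdc6* formed a trio (97.9% for *Stfa1* and *Cstdc5*, 96.2% for *Cstdc5* and *Cstdc6*, 94.4% for *Stfa1* and *Cstdc6*). *Stfa2* and *Stfa2l1*, which lie on opposite strands with other members between them, were 96.4% identical. *Cstdc4* was at most 83.2% identical to another member and 96.9% identical to *Csta2*.

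Counting used uniquely mapped read pairs, so sequence shared between copies bears on the counts. Of all stretches of 100 bases in the transcripts of *Cstdc4*, 2.5% also occurred in a transcript of another gene, *Csta2* among them. The share was 5.1% in *Stfa1*, 13.5% in *Cstdc6* and 15.6% in *Cstdc5*, and it was 0.0% in *Stfa2*, *Stfa2l1* and *Stfa3*. *Cstdc5* and *Cstdc6* are thus the members whose counts could be most reduced or split. Part of the shared sequence of *Cstdc5* lay in the antisense gene *Gm15845*, and reads of the pair can be told apart only if counting used strand, which was not stated.

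Promoter windows (RefSeq, GRCm38.p6, 250 bases before to 50 after the start) were at hand for 6 of the 7 members. All 6 windows held a pair of identical runs of 13 bases, ACCTTTAAAACCC and GATCATTTCTTCT, set 19 or 20 bases apart. Each run occurred in 9 of 32851 windows (0.0274%), and the other 3 windows belonged to *Csta3*, *Cstdc3* and *Gm7260*. The windows of *Csta1* and *Csta2* held neither run. The stretches of *Cstdc4*, *Stfa2l1* and *Stfa3* are shown because they come from 3 different coding-sequence groups, with the runs in capitals. They lie at chr16:36184110-36184224 (plus strand), chr16:36156705-36156819 (plus strand) and chr16:36455382-36455496 (minus strand).
Cstdc4: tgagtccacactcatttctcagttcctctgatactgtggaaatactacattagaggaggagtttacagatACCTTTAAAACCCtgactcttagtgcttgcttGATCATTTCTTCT
Stfa2l1: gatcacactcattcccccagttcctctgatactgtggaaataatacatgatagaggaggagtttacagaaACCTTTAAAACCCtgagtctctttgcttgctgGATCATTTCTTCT
Stfa3: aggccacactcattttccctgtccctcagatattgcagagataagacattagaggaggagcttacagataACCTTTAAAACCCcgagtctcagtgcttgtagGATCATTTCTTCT

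Motifs of factors tied to interferon, to myeloid cells or to PGC-1β were searched on both strands of the 6 windows. The core GAGGAA, which PU.1 binds, was in all 6 windows and in 28.3% of all promoter windows. The interferon-stimulated response element and AAGGTCA, the element of estrogen-related receptors that work with PGC-1β, were in 0 of 6 (3.44% and 4.72% of all windows). TTCNNNGAA, which STAT dimers bind, was in 1 of 6, that of *Cstdc4*, 128 bases before the start (8.3% of all windows). TTGCNNAA, which C/EBP factors bind, was in those of *Stfa1* and *Cstdc5* (10.8% of all windows). The NF-κB motif was in the same pair (20.7% of all), TGANTCA, for AP-1, was in that of *Stfa3* (7.81% of all), and TATAAA was in 0 of 6 (13.6% of all). A match shows only that these letters are present. At 3.44% and 4.72% of all windows a set of 6 would mostly hold none, so nothing is read from those absences.

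**Figure D1:**
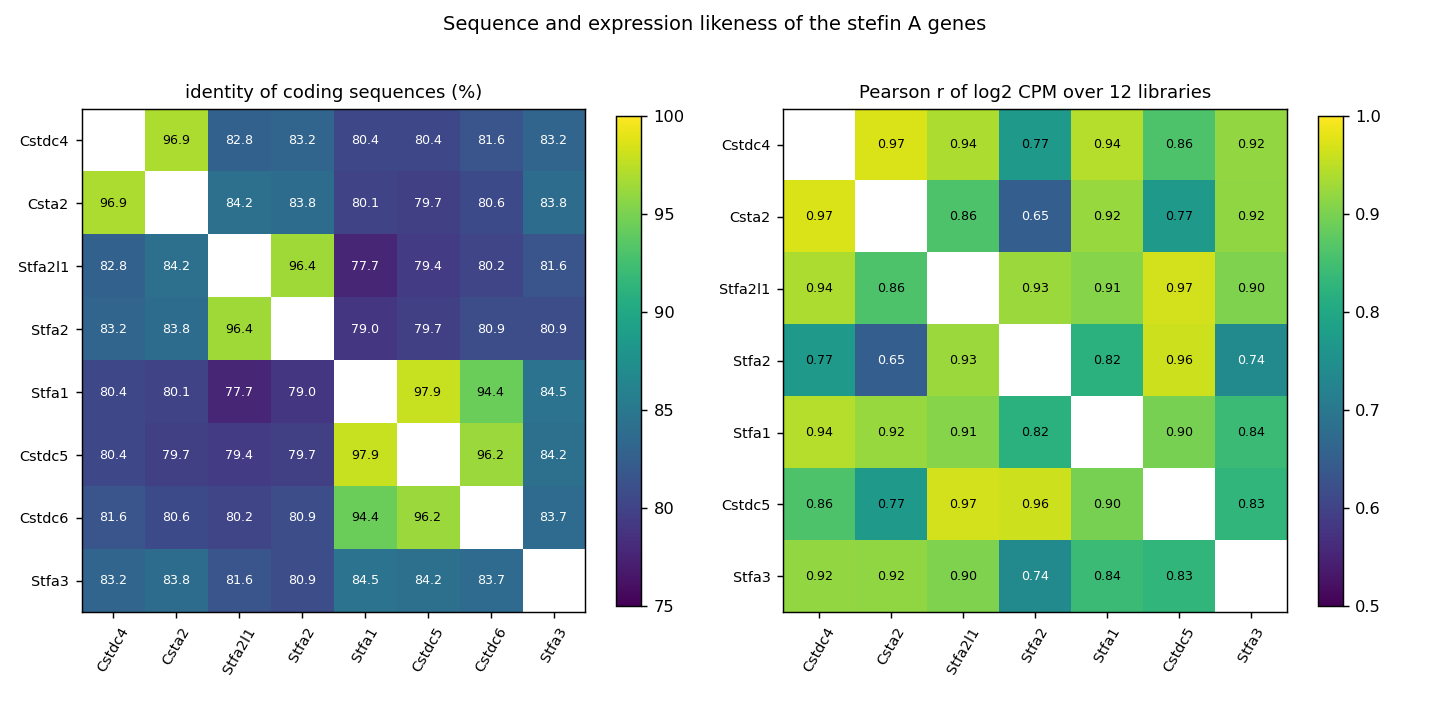
Left, percent identity of coding sequences for the 7 members and Csta2; right, Pearson r of log2 CPM over 12 libraries for the 6 tested members and Csta2 (Cstdc6 had too few counts). Pairs with identity from 94.4% to 97.9% stand out on the left, and r ranged from 0.65 to 0.97 on the right.

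*Cstdc4* carried most of the cluster's counts. It was at 17.5, 14.9 and 16.1 CPM in unstimulated shControl libraries and at 71.6, 64.7 and 66.5 CPM in unstimulated sh*Ppargc1b* libraries. With IFN-β it was at 10.1, 11.9 and 9.44 CPM in shControl and at 50.4, 45.4 and 44.9 CPM in sh*Ppargc1b* libraries. The 6 knockdown libraries all lay above the 6 control libraries, and within each arm the IFN-β libraries all lay below the unstimulated ones. *Cstdc4* made up 77.5% to 85.2% of the summed CPM of the members as group means, and that sum was 19.6 ± 0.785 and 79.4 ± 4.61 CPM in unstimulated shControl and sh*Ppargc1b* cells (SD, n = 3). With IFN-β the sum was 13.6 ± 2.28 and 57.7 ± 3.33 CPM.

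The other 5 tested members stood at 0.130 to 4.2 CPM. *Stfa2l1*, the *Stfa2*-like copy, was at 0.630, 1.13 and 1.03 CPM in unstimulated shControl and at 3.12, 3.13 and 4.11 CPM in unstimulated sh*Ppargc1b* libraries. *Cstdc5* was at 0.577, 1.08 and 1.08 CPM and at 4.07, 3.0 and 4.2 CPM in the same groups. *Stfa2* was at 0.472, 0.983 and 0.887 CPM and at 1.70, 1.35 and 2.66 CPM. In each of these 3 genes no control library reached the lowest knockdown library, and replicate 1 was the lowest control library. *Stfa1* was at 0.507, 0.229 and 0.426 CPM and at 2.02, 1.24 and 1.28 CPM. *Stfa3* was at 0.437, 0.410 and 0.532 CPM and at 1.08, 1.01 and 1.23 CPM, with less spread within groups than the other low members.

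With IFN-β the low members kept the same order of arms. *Stfa2l1* was at 0.454, 0.964 and 0.802 CPM in shControl and at 3.16, 2.58 and 3.67 CPM in sh*Ppargc1b* libraries. *Cstdc5* was at 0.302, 1.42 and 1.24 CPM and at 3.22, 2.63 and 4.01 CPM. *Stfa2* was at 0.194, 0.945 and 0.830 CPM and at 1.74, 1.61 and 3.06 CPM. Replicate 1 of IFN-β-treated shControl cells was low in all 3 of these genes and in *Stfa1*, which was at 0.130, 0.284 and 0.352 CPM there and at 1.18, 1.0 and 1.33 CPM in the knockdown. *Stfa3* was at 0.519, 0.643 and 0.338 CPM and at 1.11, 0.929 and 1.07 CPM. *Cstdc6* had 0, 1, 0 counts in unstimulated shControl, 0, 0, 1 in IFN-β-treated shControl, 1, 1, 2 in unstimulated sh*Ppargc1b* and 2, 2, 2 in IFN-β-treated sh*Ppargc1b* libraries, too few to compare.

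**Figure D2:**
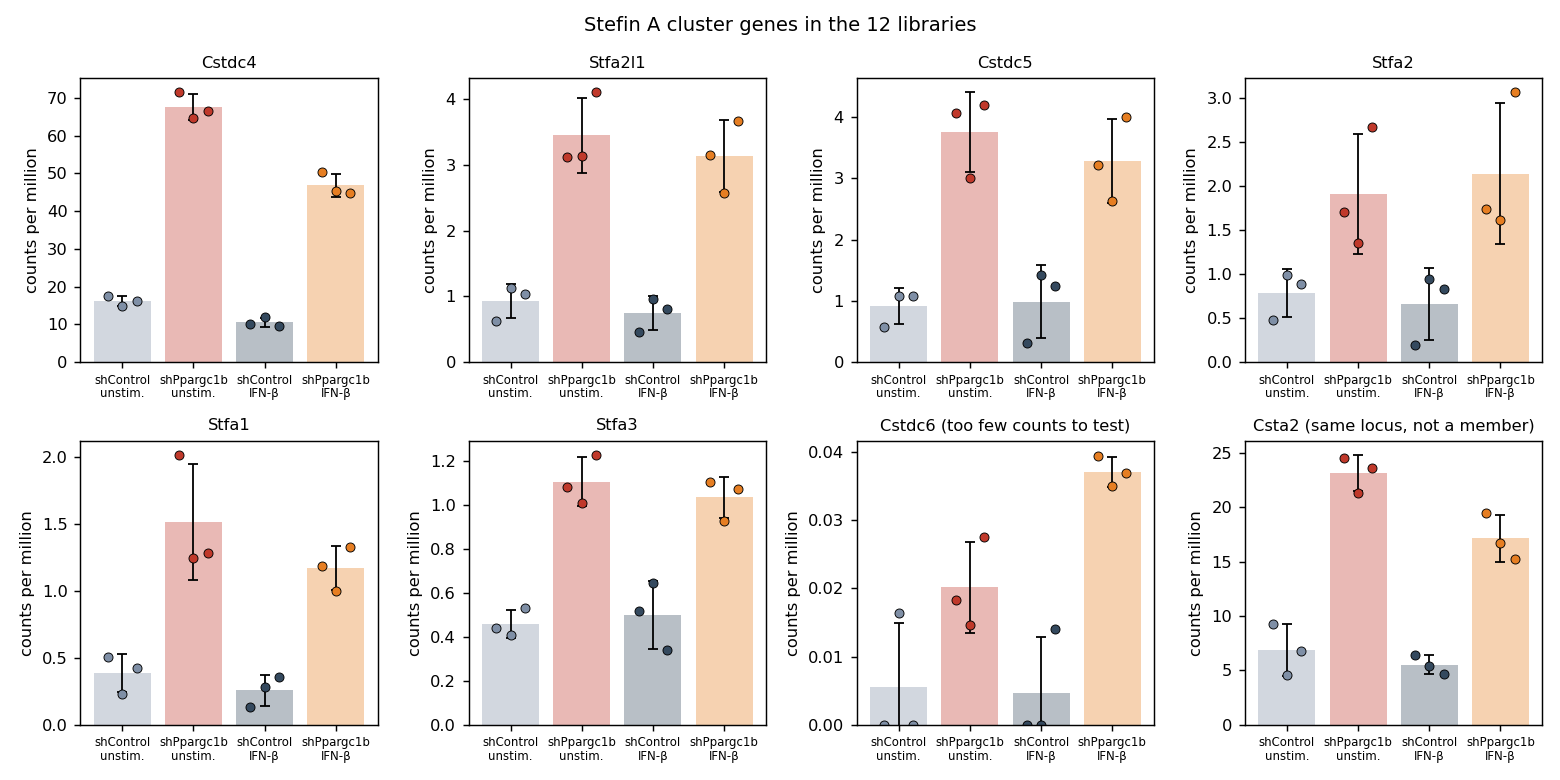
CPM of the 7 members and Csta2 in each library by group; bars are means, error bars SD (n = 3), points libraries, and each panel has its own axis from 0. In the 6 tested members every knockdown library lies above every control library of the same treatment; Cstdc6 stays at 0 to 2 counts.

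Because transcripts differ in length, levels were compared between genes per kilobase of exon. In unstimulated shControl cells *Cstdc4* led the members at 8.67 ± 0.710 CPM per kb, followed by *Stfa2l1* at 2.22 ± 0.631, *Stfa2* at 1.66 ± 0.576, *Cstdc5* at 1.16 ± 0.368, *Stfa3* at 1.12 ± 0.156 and *Stfa1* at 0.546 ± 0.201 (SD, n = 3). Neighbours in this order from *Stfa2l1* down to *Stfa3* differed by less than the larger SD of the pair. In unstimulated sh*Ppargc1b* cells the order was *Cstdc4* at 36.3 ± 1.92, *Stfa2l1* at 8.24 ± 1.37, *Cstdc5* at 4.75 ± 0.833, *Stfa2* at 4.04 ± 1.45, *Stfa3* at 2.69 ± 0.272 and *Stfa1* at 2.13 ± 0.612 CPM per kb. There neighbours from *Cstdc5* down to *Stfa1* did so too. The exons of *Cstdc4* include a transcript of 1859 bases besides the coding transcript of 414 bases. Set against the coding transcript alone, its level in unstimulated shControl cells was 39.0 ± 3.19 CPM per kb. *Csta2*, not a member, stood at 10.8 ± 3.69 CPM per kb of exon and 23.4 ± 8.01 per kb of coding transcript in those cells. In unstimulated sh*Ppargc1b* cells *Csta2* stood at 36.3 ± 2.63 CPM per kb of exon.

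The knockdown difference chose the members, so its values are a description and no p-value of a member is given. In unstimulated cells the log2 fold change (sh*Ppargc1b* minus shControl) was 2.07 ± 0.08 for *Cstdc4*, 2.03 ± 0.34 for *Cstdc5*, 1.96 ± 0.32 for *Stfa1* and 1.89 ± 0.24 for *Stfa2l1* (SE). It was 1.29 ± 0.40 for *Stfa2* and 1.27 ± 0.24 for *Stfa3*. With IFN-β it was 2.16 ± 0.08 for *Cstdc4*, 2.13 ± 0.34 for *Stfa1*, 2.06 ± 0.25 for *Stfa2l1*, 1.69 ± 0.35 for *Cstdc5*, 1.66 ± 0.42 for *Stfa2* and 1.07 ± 0.24 for *Stfa3*. The estimate for *Cstdc4* had the smallest SE of the members. The medians over the 6 tested members were 1.92 and 1.88, against -0.0049 and -0.011 over all tested genes. The edgeR fit over all genes put 6 of 6 past the adjusted p threshold of 0.05 and higher in each state, where 12.4% of all genes were higher without and 11.5% with IFN-β. Knockdown libraries lay above control libraries in 6 of 6, as in 18.4% of all genes without and 18.0% with IFN-β. The rule used this contrast, so nothing is read from these counts.

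*Csta2*, the near copy of *Cstdc4*, was at 9.29, 4.59 and 6.74 CPM in unstimulated shControl and at 24.6, 21.3 and 23.6 CPM in unstimulated sh*Ppargc1b* libraries. It rose by 1.76 ± 0.18 on the log2 scale without IFN-β and by 1.65 ± 0.19 with it (SE, edgeR adjusted p = 4.64e-06 and 1.28e-05). The rule did not take *Csta2*, and 5.6% of the stretches of 100 bases in its transcripts also occurred in *Cstdc4*.

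**Figure D3:**
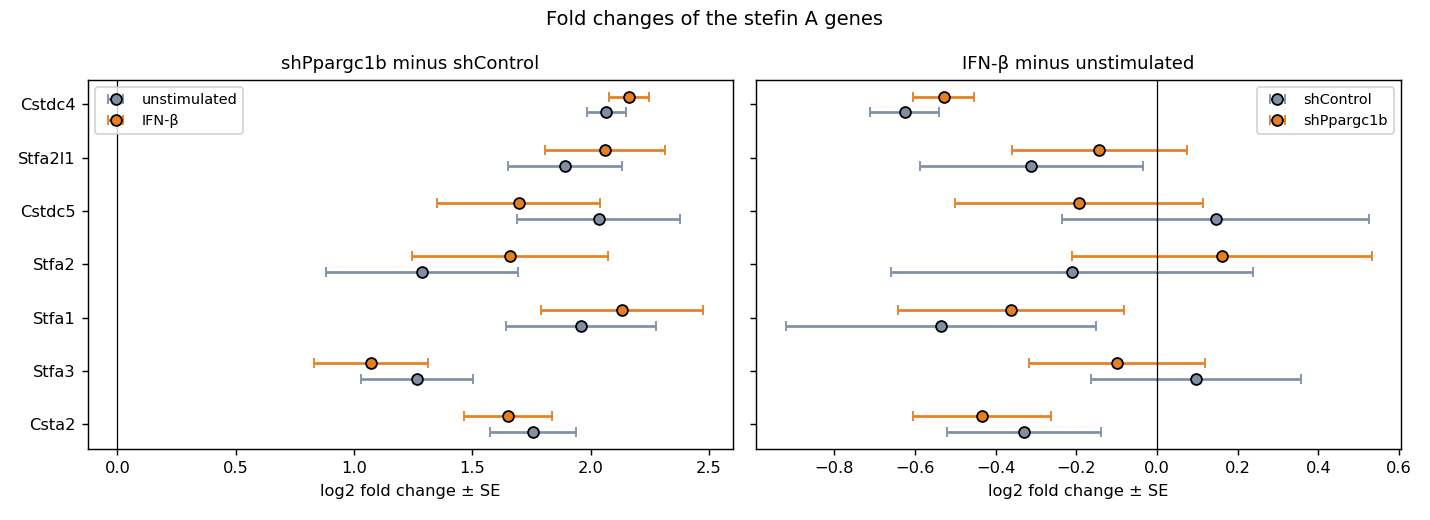
Log2 fold changes ± SE of the 6 tested members and Csta2, left for the knockdown in each state and right for IFN-β in each arm. On the left all values lie from 1.07 to 2.16; on the right Cstdc4 lies at -0.63 and -0.53 and the error bars of the other members are wider.

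IFN-β lowered *Cstdc4* in both arms. The change was -0.63 ± 0.09 in shControl and -0.53 ± 0.08 in sh*Ppargc1b* cells (log2, SE, edgeR adjusted p = 1.78e-05 and 3.92e-05), and libraries did not overlap in either arm, as in 29.4% and 25.4% of all genes in that direction. This was 1 of 6 tested members lower in each arm, where 24.6% of all genes were lower in shControl and 21.2% in sh*Ppargc1b* cells. Of the tested members 0 were higher, where 23.7% and 21.4% of all genes were. At an unadjusted p under 0.05 the edgeR count of higher members was also 0 in each arm, as it was with DESeq2 and with limma-voom. *Cstdc4* was chosen for its rise in the knockdown, and unstimulated sh*Ppargc1b* libraries are the baseline of its fall in that arm. The choice can favour such a fall, so the p-value of *Cstdc4* in sh*Ppargc1b* cells is not free of it.

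The other 5 members gave no call with IFN-β, and their libraries overlapped. *Stfa1* differed by -0.54 ± 0.38 in shControl and -0.36 ± 0.28 in sh*Ppargc1b* cells (edgeR adjusted p = 0.275 and 0.331). *Stfa2l1* differed by -0.31 ± 0.28 and -0.14 ± 0.22 (adjusted p = 0.383 and 0.644), and *Stfa2* by -0.21 ± 0.45 and 0.16 ± 0.37 (adjusted p = 0.731 and 0.771). *Cstdc5* differed by 0.15 ± 0.38 and -0.19 ± 0.31 (adjusted p = 0.782 and 0.660), and *Stfa3* by 0.10 ± 0.26 and -0.10 ± 0.22 (adjusted p = 0.788 and 0.758). In shControl cells the fall of *Cstdc4* to 0.648-fold lay inside the 95% intervals of *Stfa1* (0.409 to 1.16), *Stfa2* (0.470 to 1.59) and *Stfa2l1* (0.554 to 1.17). It lay below those of *Cstdc5* (0.660 to 1.86) and *Stfa3* (0.751 to 1.52). In sh*Ppargc1b* cells the fall of *Cstdc4* to 0.693-fold lay inside the interval of *Cstdc5* (0.576 to 1.33), as it did for *Stfa1*, *Stfa2* and *Stfa2l1*, and at the lower bound of that of *Stfa3* (0.693 to 1.26). *Csta2* differed by -0.33 ± 0.19 and -0.43 ± 0.17 (adjusted p = 0.177 and 0.0520).

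The knockdown effect with IFN-β minus that without it (the interaction) was tested for the 5 members other than *Cstdc4*. None passed the threshold in edgeR, where 0.730% of all genes did. The count was also 0 at an unadjusted p under 0.05, and 0 with DESeq2 and limma-voom. The differences ran from -0.34 ± 0.49 for *Cstdc5* to 0.37 ± 0.58 for *Stfa2* on the log2 scale (SE), so shifts of that size were not detectable. For *Cstdc4* the difference was 0.10 ± 0.11, given as a description.

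The members varied together to different degrees across the 12 libraries, which share the 4 group levels. The highest Pearson r of log2 CPM was 0.97 for *Stfa2l1* with *Cstdc5* and the lowest was 0.74 for *Stfa2* with *Stfa3*. After the group means were taken out, *Stfa2* kept an r of 0.95 with *Stfa2l1* and 0.96 with *Cstdc5*, and *Stfa2l1* one of 0.92 with *Cstdc5*. *Cstdc4* then stood at -0.06 with *Stfa2*, -0.06 with *Stfa2l1* and 0.06 with *Cstdc5*, and at 0.64 with *Csta2* and 0.66 with *Stfa3*. The trio *Stfa2*, *Stfa2l1* and *Cstdc5* thus moved together from library to library within groups, apart from *Cstdc4*. *Cstdc5* is only 79.7% identical in coding sequence to *Stfa2*.

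Stefin A genes are known in neutrophils, which also grow in GM-CSF cultures, so the neutrophil-like markers are given beside them. All 15 were tested. In each knockdown comparison 4 of 15 were higher (12.4% of all genes without and 11.5% with IFN-β) and 11 did not pass the threshold. Their summed level ran from 716 to 958 CPM in unstimulated shControl, 1191 to 1483 in unstimulated sh*Ppargc1b*, 615 to 799 in IFN-β-treated shControl and 1058 to 1288 in IFN-β-treated sh*Ppargc1b* libraries. *Mmp8*, a collagenase of neutrophil granules that held 86.0% of these counts, rose by 0.67 ± 0.13 and 0.76 ± 0.13 in the knockdown (log2, SE, edgeR adjusted p = 0.00127 and 0.000479). No marker was at 0 in any library. *Ngp*, a granule protein of neutrophil precursors, differed by 0.75 ± 0.43 and 0.78 ± 0.43 in the knockdown (adjusted p = 0.249 and 0.217). Some low markers ran the other way without a call. *Prtn3* was at 0.210, 0.229 and 0.231 CPM in unstimulated shControl and at 0.0550, 0.0439 and 0.193 CPM in unstimulated sh*Ppargc1b* libraries.

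Without *Mmp8* the other 14 markers summed to 62.2 to 126 CPM in unstimulated shControl and 123 to 204 CPM in unstimulated sh*Ppargc1b* libraries. With IFN-β they summed to 79.2 to 150 and 138 to 234 CPM. The 6 members other than *Cstdc4* ordered the libraries as these markers did in 3 of 4 groups, and *Cstdc4* did so in 0 of 4. The markers ranked the libraries alike in both groups of an arm, so the 4 groups are not 4 separate orders. *Mmp8* was left out after its share had been seen. With all 15 markers the other 6 members kept the marker order in 1 of 4 groups and *Cstdc4* in 0 of 4. The part of neutrophil-like cells in the knockdown difference was not tested, and in bulk RNA more cells of a type cannot be told apart from more RNA per cell. Calls in the other marker lists were partial. In unstimulated cells 5 of 9 tested dendritic-like markers were higher in the knockdown (6 of 9 with IFN-β). Of all genes 12.4% were higher without and 11.5% with IFN-β. In unstimulated cells 2 of 8 macrophage-like markers were lower (4 of 8 with IFN-β). Of all genes 11.1% were lower without and 12.7% with IFN-β. Of 7 tested mast cell or basophil-like markers 2 were higher in each state. Their list summed to 8.80 to 17.7 CPM in unstimulated control and 22.3 to 26.7 CPM in unstimulated knockdown libraries. With IFN-β the sums overlapped, at 7.84 to 16.1 CPM in control and 13.0 to 22.4 CPM in knockdown libraries. Of 5 eosinophil-like markers 0 passed in edgeR in either state, with 1 at an unadjusted p under 0.05 in each. The count was also 0 with limma-voom in both states and with DESeq2 in unstimulated cells, and it was 1 with DESeq2 under IFN-β. Of 2 tested lymphocyte-like markers 1 was higher in each state. Keratinocyte-like markers, the other setting in which stefin A is known, summed to 0.315 to 0.532 CPM over the 12 libraries.

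**Figure D4:**
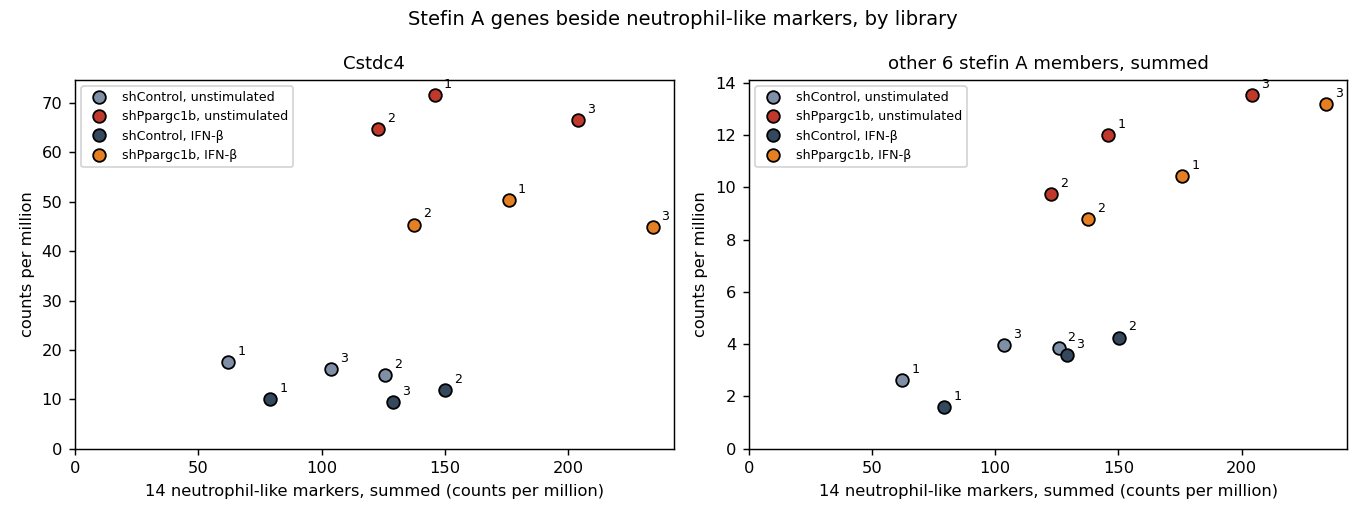
Cstdc4 (left) and the summed CPM of the other 6 members (right) against the summed CPM of 14 neutrophil-like markers without Mmp8; each point is a library with its replicate number, coloured by group. The knockdown libraries lie at marker sums of 123 to 234 CPM and the control libraries at 62.2 to 150 CPM. The lower marker sums thus hold control libraries only. On the right the libraries rank as the markers do in 3 of 4 groups, and the marker ranks are alike in both groups of an arm.

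The genes around the cluster are given for comparison. Within 500 kb of the span 16 other protein-coding genes were tested besides *Csta2*. In unstimulated cells 2 were higher and 2 lower in the knockdown, with a median log2 fold change of -0.01, and the highest was *Cd86* at 0.90 ± 0.04 (edgeR adjusted p = 4.68e-09). *Cd86* encodes a costimulatory ligand for T cells. With IFN-β 1 neighbour was higher and 4 were lower in the knockdown. Of all genes 12.4% were higher and 11.1% lower in the knockdown without IFN-β, and 11.5% and 12.7% with it. IFN-β itself raised 9 of 16 neighbours in shControl cells, where 23.7% of all genes were higher. Among the 9 were *Parp14* by 2.23 ± 0.06 and *Dtx3l* by 2.22 ± 0.05 (adjusted p = 1.21e-13 and 1.19e-14), which are interferon-induced ADP-ribosylation and ubiquitin enzymes. On the other side of the cluster *Cd86* rose by 2.13 ± 0.04 with IFN-β (adjusted p = 3.42e-15). Induced genes thus lay on both sides, though *Parp14* and *Dtx3l* were not the nearest tested neighbours. *Parp9*, *Kpna1*, *Wdr5b*, *Fam162a* and *Ccdc58* lay between *Dtx3l* and the cluster, and IFN-β lowered 1 of the 16 in shControl cells.

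**Figure D5:**
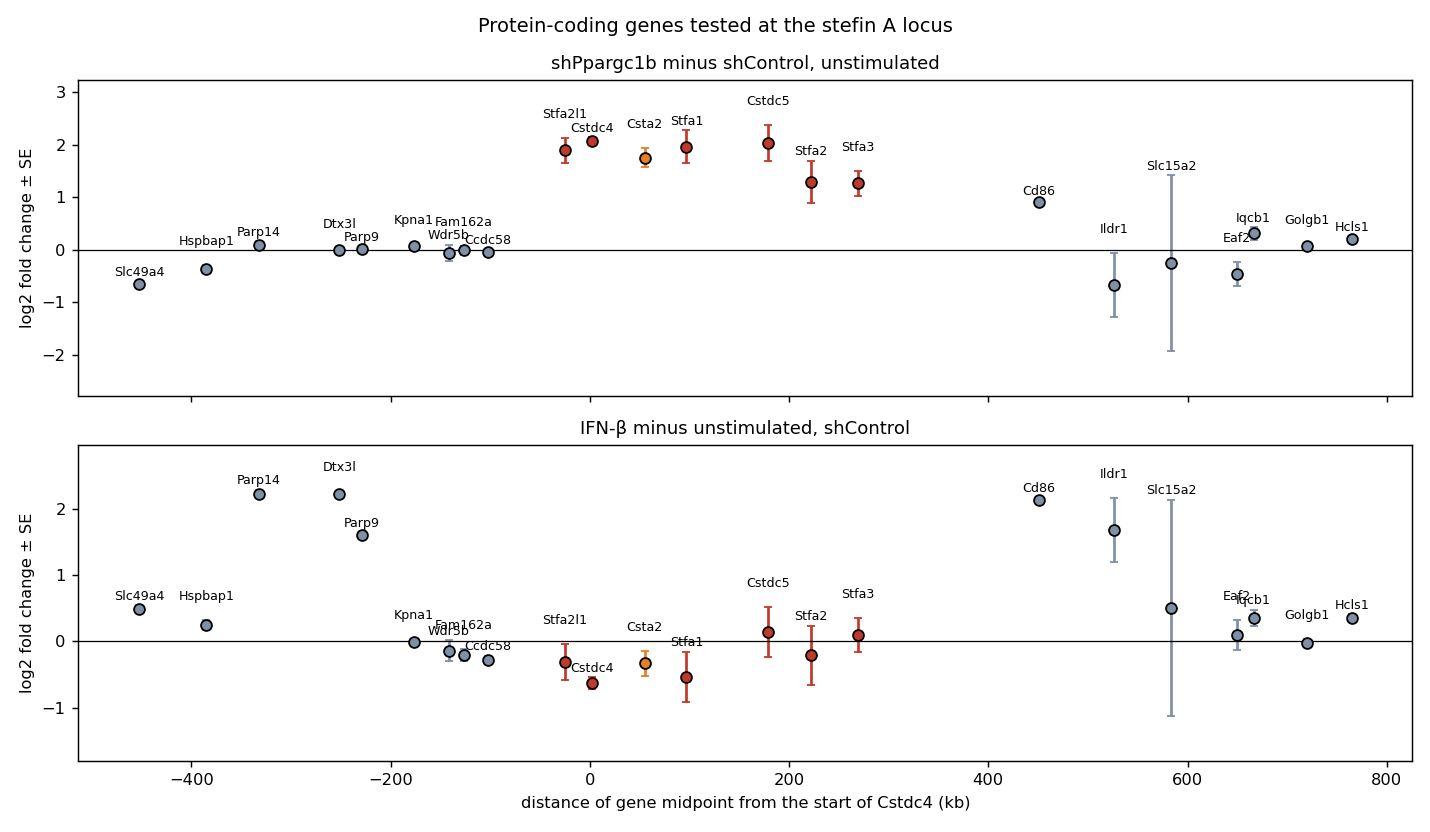
Log2 fold change ± SE of tested protein-coding genes by distance of their midpoint from the start of Cstdc4 in kb, upper for the knockdown in unstimulated cells and lower for IFN-β in shControl cells; red, members; orange, Csta2; grey, other genes. The members stand at 1.27 to 2.07 in the upper panel, and Parp14, Dtx3l and Cd86 stand above 2 in the lower panel.

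Among 17 other cystatins only *Cstb*, *Cst3* and *Cst7* had enough counts to test. All 3 were higher in both knockdown and both IFN-β comparisons. Of all genes 12.4% were higher in the knockdown without and 11.5% with IFN-β. IFN-β raised 23.7% of all genes in shControl and 21.4% in sh*Ppargc1b* cells. *Cstb* rose by 0.23 ± 0.04 in the knockdown without IFN-β (log2, SE, edgeR adjusted p = 0.000305) and *Cst3* by 0.56 ± 0.06 (adjusted p = 6.61e-06). *Cst7*, cystatin F of lysosomes in immune cells, stood without IFN-β at 1.03 ± 0.262 CPM in control and at 3.07 ± 0.472 CPM in knockdown cells (SD, n = 3), a rise of 1.57 ± 0.19 (adjusted p = 2.20e-05). With IFN-β *Cst7* rose by 1.55 ± 0.19 in shControl cells (adjusted p = 5.99e-06), opposite in sign to *Cstdc4*.

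Cysteine cathepsins are the proteases that stefins inhibit. Of 11 cysteine cathepsins and legumain 10 were tested. In the knockdown 2 were higher and 5 lower in unstimulated cells, with 1 higher and 5 lower under IFN-β. Of all genes 12.4% were higher and 11.1% lower in the knockdown without IFN-β, and 11.5% and 12.7% with it. *Ctsz* rose by 0.33 ± 0.04 (log2, SE, edgeR adjusted p = 3.14e-05), and *Ctss*, the main protease of invariant chain processing in DCs, fell by 0.16 ± 0.05 (adjusted p = 0.0238). *Ctsc* differed more, at 1294, 1276 and 1293 CPM in unstimulated shControl and 862, 852 and 826 CPM in unstimulated sh*Ppargc1b* libraries. IFN-β raised 7 of the 10 in each arm, *Ctsb* by 0.46 ± 0.05 in shControl cells (adjusted p = 6.16e-07).

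The genes whose log2 CPM was most like that of *Cstdc4* over 12 libraries, among 11793 with a mean log2 CPM of at least 1, were *S1pr3*, *Hgfac*, *Pkp2*, *Top1* and *Angptl2*. Their Pearson r ran from 0.988 to 0.995. The 3 least like were *Dennd4c*, *Eif4g3* and *Notch2*, with r of -0.985, -0.980 and -0.979. The 12 libraries share 4 group levels, which sets most of such an r. By Spearman correlation 1 of the 5 stayed among the 5 most like, and with scaling by library totals 3 did. With that scaling the Pearson r of *Dennd4c*, *Eif4g3* and *Notch2* was -0.831, -0.353 and -0.647.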

How the data were processed

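RNA-seq of 12 mouse DC libraries in 4 groups of 3 was analysed. The authors depleted ribosomal RNA, trimmed adapters and mapped read pairs to mm10 with STAR in its gene-counting mode. The submitters' processing notes name Trim Galore 0.6.0 and STAR 2.7.8a, and the study's methods name another STAR release. The deposited values were raw counts: for each GENCODE gene, the read pairs that mapped to a single place, not normalized. The strand setting was not given in the sources used here.

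Counts were fitted with edgeR 4.0.16 (R 4.3.3): filterByExpr (minimum count 10, minimum total 15; 18228 genes), TMM scaling and a quasi-likelihood model with 1 mean per group over all 12 libraries. Benjamini-Hochberg adjustment of the F-test p-values ran over all tested genes (threshold 0.05). Log2 CPM for correlations used a prior count of 2. Intervals of folds are 1.96 SE on either side. CPM, per-kilobase levels and sums were computed from the counts.

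Members and gene lists were chosen with earlier results of these data known. Genes named are all members, *Ppargc1b*, examples with most counts from the cystatin, protease and marker lists, tested neighbours within 500 kb, and the 5 genes most and 3 least like *Cstdc4*. A few examples in the lists were chosen after their values were seen. Groups came from the labels, which number no replicates; replicates were numbered in record order. Gene models and coding sequences came from GENCODE M21, promoters from RefSeq, and coding sequences were aligned with Biopython 1.88. Alternatives were other size factors, no filter, DESeq2 1.42.0, limma-voom (limma 3.58.1), a block, the compared groups alone and each library left out.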

Additional observations from a re-analysis of the deposited data

How the results depend on the processing

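Over 19 alternatives the fall of *Cstdc4* with IFN-β kept its direction and its side of the threshold, at -0.87 to -0.53 in shControl (adjusted p up to 0.00025) and -0.73 to -0.48 in sh*Ppargc1b* cells (adjusted p up to 0.00042). The count of members lower with IFN-β stayed at 1 in each arm, and members higher in the knockdown numbered 5 or 6. The 5 lacked *Stfa2*: in unstimulated cells with DESeq2, without replicate 1 or 3 of shControl or without replicate 3 of sh*Ppargc1b*, and under IFN-β without replicate 3 of sh*Ppargc1b*. *Csta2* with IFN-β passed the threshold under 3 alternatives in shControl (library totals, no filter, and without replicate 2 of unstimulated shControl) and under 8 in sh*Ppargc1b* cells, with an adjusted p of 2.6e-06 to 0.18 over the 19.

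The interaction called 133 genes. It called 84 with library totals, 525 with no filter, 449 with DESeq2, 425 with a replicate block by run of library codes, and 36 to 271 with 1 library left out. Of the 5 genes most like *Cstdc4*, 1 stayed by Spearman correlation and 3 with library totals; the cause was not tested. Labels do not say that a run of codes marks a shared culture. Deviations from group means correlated at 0.028 to 0.15 within runs (18 pairs) and at -0.15 to 0.056 between runs (36 pairs), and 12 of 12 libraries correlated best with their own run, a hint from the data that libraries of a run share more than their codes. *Slc15a2* had 257 to 366 counts in the first run and 0 to 22 in the others. The block moved no count of members called.

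Among members with no call, signs turned. With library totals, IFN-β in shControl gave -0.14 for *Stfa3* and -0.097 for *Cstdc5*, and IFN-β in sh*Ppargc1b* gave -0.044 for *Stfa2*. With limma-voom *Cstdc5* in shControl gave -0.0060. With 1 library left out, IFN-β in shControl ran from -0.49 to 0.19 for *Stfa2* (0.19 without replicate 1 of IFN-β-treated shControl, the low library), -0.11 to 0.36 for *Stfa3* and -0.13 to 0.55 for *Cstdc5*. In sh*Ppargc1b* cells it ran from -0.19 to 0.49 for *Stfa2*, -0.27 to 0.0056 for *Stfa2l1* and -0.15 to 0.066 for *Ppargc1b*. Interactions turned for *Stfa1*, *Stfa2*, *Stfa2l1*, *Stfa3* and *Csta2*, at -0.11 to 0.49, -0.027 to 0.72, -0.069 to 0.40, -0.45 to 0.019 and -0.36 to 0.14 in that order. At 6 to 110 counts per library, *Stfa1* shows how few reads the low members rest on.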
